A study of Mus musculus with 70 samples.

Results

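1,5-Naphthalenediamine and N-(1-naphthyl)ethylenediamine dihydrochloride were compared directly in the lungs of mice fed either compound. The comparison used 6 of the 70 arrays of the series, all arrays whose title carries the code of either compound: 3 arrays of 1,5-naphthalenediamine (animals 1-2, 1-4 and 1-5) and 3 of N-(1-naphthyl)ethylenediamine dihydrochloride (animals 1-12, 1-14 and 1-15). Each array held RNA of the right lung lobe of 1 female B6C3F1 mouse, a hybrid of the C57BL/6 and C3H strains, 18 weeks old. Both compounds were given in feed at 2000 ppm for 13 weeks, 7 days a week, and both groups carry set number 1. The labels class 1,5-naphthalenediamine as positive and N-(1-naphthyl)ethylenediamine dihydrochloride as negative for lung tumours. This was the only pair of compounds compared (1 pair), and no control array entered the contrast. The 3 feed controls of the same set (animals 1-27, 1-28 and 1-29, 0 ppm, same age and duration) are quoted below as levels only. A gene's level is its probe set signal on the log2 scale, and a difference is the mean with 1,5-naphthalenediamine minus the mean with N-(1-naphthyl)ethylenediamine, so that 1 log2 unit is a doubling of the signal.

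Both compounds are built on naphthalene. 1,5-Naphthalenediamine bears a free amino group on each of the fused rings, whereas the other compound has a single ring-bound nitrogen that carries an aminoethyl chain, and it was given as a salt. The same mass in feed is therefore fewer moles of the heavier salt, and the sources used here give neither intake nor tissue dose. Flat aromatic compounds can bind the aryl hydrocarbon receptor (AhR), a transcription factor that, with its partner ARNT, induces Cyp1 monooxygenases. Ring amines can be oxidised to electrophilic or redox-active products. Electrophiles release the transcription factor NRF2 from its inhibitor KEAP1, and NRF2 then induces enzymes that make and use glutathione, reduce quinones and supply NADPH. In the lung these enzymes lie largely in the airway epithelium, next to ciliated cells and to immune cells that secrete antibody into the mucus.

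Array and RNA quality was compared first. Pairs of arrays of the same compound correlated at 0.99 to 0.9953 over all probe sets and pairs of different compounds at 0.9867 to 0.993. Sftpc, the surfactant protein of alveolar type II cells, had a mean of 14.36 with 1,5-naphthalenediamine and 14.37 with N-(1-naphthyl)ethylenediamine, and Scgb1a1, the secretory protein of club cells, 14.16 and 14.24, so the defining lung markers were present in both groups. The RNA quality grade in the labels was Good for all 3 mice of 1,5-naphthalenediamine and Excellent for all 3 of the other compound, so grade and compound cannot be told apart. The absorbance ratio that the labels give for RNA purity was 2.10, 2.16 and 2.04 in animals 1-2, 1-4 and 1-5 and 2.66, 2.12 and 2.58 in animals 1-12, 1-14 and 1-15, and its part in the differences was not tested. The gap between 3' and 5' control probe sets for Actb and Gapdh, which grows as RNA breaks down, averaged 0.212, 0.093 and 0.191 log2 units in animals 1-2, 1-4 and 1-5, against 0.318, 0.132 and 0.404 in animals 1-12, 1-14 and 1-15. With that value as a covariate 242 genes were called, of which 227 were also called without it. Lung lobes are mixtures, so fewer cells of a type and less RNA per cell cannot be told apart.

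Of 14593 genes tested, 243 differed between the compounds (1.67%; limma, adjusted p under 0.05). 217 of them (1.49% of genes tested) were higher with 1,5-naphthalenediamine and 26 (0.178%) were lower. Across all genes the median difference was -0.01, and 46.9% of genes had a difference above 0. The difference exceeded 2-fold in 80 of the genes called higher and in 5 of those called lower, and stayed under 2-fold in the other 158. The 3 arrays of either compound all lay beyond those of the other for 240 of the 243 called genes, against 22.7% of all genes tested. Leaving out animal 1-5 reduced the count to 158, and quantile normalization over again changed the split to 210 higher and 55 lower. The fit of the 6 arrays alone called 417 higher and 69 lower, and array weights 1112 and 810. For 174 of the 217 genes called higher and 18 of the 26 called lower, the mean of the feed controls lay nearer to N-(1-naphthyl)ethylenediamine than to 1,5-naphthalenediamine, against 48.1% of all genes tested.

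**Figure D1:**
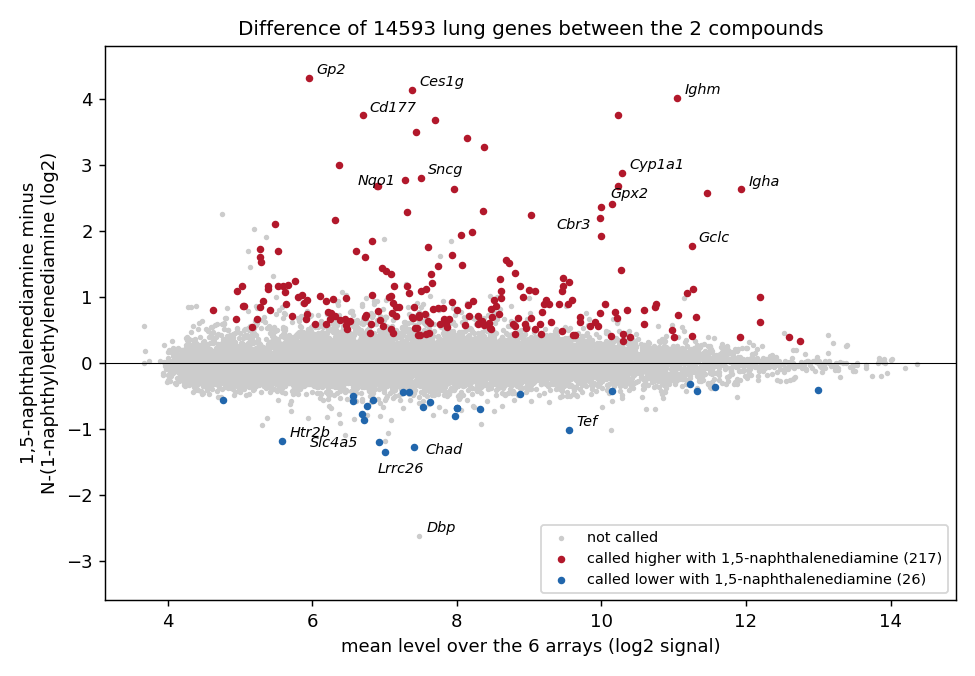
Each point is 1 of 14593 genes, with its mean level over the 6 arrays on the horizontal axis (log2 signal) and the difference 1,5-naphthalenediamine minus N-(1-naphthyl)ethylenediamine on the vertical axis (log2). The 217 genes called higher reach 4.32 (Gp2), and the 26 called lower reach -1.35 (Lrrc26); Dbp, the lowest point at -2.62, was not called.

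Of 11 measured genes that AhR induces, 4 were higher and 0 lower with 1,5-naphthalenediamine, where 1.49% of all genes tested were called higher, and the median of all 11 was 0.09 against -0.01 over all genes. Cyp1a1, the monooxygenase that serves as the standard readout of AhR, read 11.45, 11.79 and 11.93 with 1,5-naphthalenediamine and 8.63, 8.87 and 9.03 with N-(1-naphthyl)ethylenediamine. The feed controls read 5.15, 5.18 and 6.70. The 3 groups did not overlap, and both compounds stood above all controls. Cyp1a1 was 7.37-fold higher with 1,5-naphthalenediamine (2.88 ± 0.42 SE log2 units, 95% interval 2.04 to 3.72, limma adjusted p = 2.03e-06).

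Cyp1b1, the related monooxygenase that activates many aromatic carcinogens, read 8.28, 8.62 and 8.50 with 1,5-naphthalenediamine and 6.52, 6.62 and 7.02 with N-(1-naphthyl)ethylenediamine, where the controls read 6.53, 7.14 and 6.54. Unlike Cyp1a1, it lay in the same range with N-(1-naphthyl)ethylenediamine as in the controls. The difference was 1.75 ± 0.30 (adjusted p = 5.42e-05), and its 3 probe sets ranged from -0.01 to 2.15. Aldh3a1, an aldehyde dehydrogenase, read 10.11, 10.21 and 10.11 against 8.37, 7.58 and 7.77 (2.24 ± 0.25, adjusted p = 1.07e-09). Nqo1, a quinone reductase that both AhR and NRF2 induce, is the fourth and is described with the NRF2 genes. Tiparp (0.01), Selenbp1 (0.19), Xdh (-0.11) and Cyp1a2 were not called, and for Cyp1a2 the interval was wide (-0.12, 95% interval -0.96 to 0.72). Of 8 measured proteins of the pathway itself 0 were called by limma, and 0 had an unadjusted p under 0.05: Ahr differed by 0.10 (95% interval -0.45 to 0.65) and Arnt by -0.14 (-0.36 to 0.07). The 4 calls held in each of the 6 fits that left out 1 array.

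The promoter windows of the called Cyp1 genes are shown because AhR and ARNT bind the letters GCGTG. Each window runs from 250 bases before to 50 bases after the start site (RefSeq, GRCm38.p6), and capitals mark GCGTG, read on either strand (CACGC on the other). Cyp1a1 lies at chr9:57697363-57697662 on the plus strand and Cyp1b1 at chr17:79715012-79715311 on the minus strand.
Cyp1a1: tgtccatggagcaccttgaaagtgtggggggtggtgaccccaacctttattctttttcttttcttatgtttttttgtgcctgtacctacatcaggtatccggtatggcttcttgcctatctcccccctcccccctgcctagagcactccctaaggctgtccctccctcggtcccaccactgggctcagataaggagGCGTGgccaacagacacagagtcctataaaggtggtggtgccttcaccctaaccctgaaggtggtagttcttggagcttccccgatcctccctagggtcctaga
Cyp1b1: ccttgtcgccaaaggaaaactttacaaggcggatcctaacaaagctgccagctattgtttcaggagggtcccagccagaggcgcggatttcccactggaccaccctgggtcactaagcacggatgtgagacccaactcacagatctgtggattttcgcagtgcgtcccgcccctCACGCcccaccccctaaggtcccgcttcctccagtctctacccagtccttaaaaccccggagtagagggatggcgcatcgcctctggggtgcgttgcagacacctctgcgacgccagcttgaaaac
Each window held 1 match, which began 54 bases before the start site in Cyp1a1 and 76 bases before it in Cyp1b1. GCGTG is short and common: 52.2% of the 11679 tested genes with a window held it, against 42.9% of the 175 genes called higher that had one. A match is a run of letters and does not show binding.

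The genes induced by NRF2 formed the broadest group of differences. Of 25 measured NRF2 target genes 17 were higher and 0 lower with 1,5-naphthalenediamine, against 1.49% of all genes tested, and the differences of all 25 were above 0. Their median was 0.98 log2 units, and -0.01 over all genes. The mean level of the 25 genes was 10.15, 10.22 and 10.20 in the mice given 1,5-naphthalenediamine. It was 9.15, 9.15 and 9.16 with N-(1-naphthyl)ethylenediamine and 9.17, 9.18 and 9.08 in the feed controls. By this mean over the list, N-(1-naphthyl)ethylenediamine lay within the range of the controls, and 1,5-naphthalenediamine above it. The count of 17 stayed the same whichever of the 6 arrays was left out. The regulators themselves were not called: Nfe2l2, which encodes NRF2, differed by 0.04 (95% interval -0.36 to 0.45) and Keap1 by 0.11 (-0.15 to 0.37), and 0 of 10 pathway proteins passed limma's test, nor did any have an unadjusted p under 0.05.

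Enzymes of quinone reduction and of peroxide removal had the largest differences on that list. Nqo1 read 8.48, 8.57 and 8.94 with 1,5-naphthalenediamine and 5.79, 5.92 and 5.96 with N-(1-naphthyl)ethylenediamine, with controls at 5.53, 5.70 and 5.35 (6.84-fold, 2.77 ± 0.30, adjusted p = 9.98e-10). Gpx2, an epithelial glutathione peroxidase, read 11.11, 11.22 and 11.19 against 8.86, 8.77 and 8.83, a difference of 2.36 ± 0.25 (adjusted p = 2.67e-10). In both genes the groups lay over 2 log2 units apart, and the 3 mice of a group differed by less than 0.5. Srxn1, which reduces overoxidised peroxiredoxins, differed by 1.63 ± 0.18 and Txnrd1, thioredoxin reductase, by 1.41 ± 0.17. Hmox1, the enzyme that opens haem, differed by 1.48 ± 0.27 (8.73, 8.91 and 8.80 against 7.51, 7.27 and 7.22), and Blvrb, a biliverdin reductase further along haem breakdown, by 1.10 ± 0.16.

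Genes that make and recycle glutathione were among those called. Gclc, the catalytic subunit of the rate-limiting enzyme, read 11.93, 12.33 and 12.14 with 1,5-naphthalenediamine and 10.30, 10.63 and 10.15 with N-(1-naphthyl)ethylenediamine (1.77 ± 0.27, adjusted p = 3.64e-06). Its partner Gclm, the modifier subunit, read 10.00, 10.18 and 10.13 against 8.94, 8.80 and 8.75 (1.28 ± 0.15, adjusted p = 7.28e-09). Gsr, which returns oxidised glutathione to its reduced form, differed by 1.08 ± 0.15. Gss, the second enzyme of synthesis, was on no list and was singled out after its value was seen; it differed by 0.88 ± 0.12. In none of these 4 genes did the groups overlap. Abcc4 and Abcc1, pumps that export conjugates, differed by 1.00 ± 0.18 and 0.68 ± 0.10. They were the 2 called among 17 measured transporters, where 1.67% of all genes tested were called.

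Promoter windows of Gclm, Srxn1 and Txnrd1 are shown because these NRF2 targets differed between the compounds and hold the letters TGACNNNGC. These letters are a form of the core that NRF2 and its small MAF partners bind. Capitals mark that motif, read on either strand. Spellings with TGAG in place of TGAC were not searched for, and tgagtcagc in the window of Srxn1 is left in small letters. The windows lie at chr3:122245307-122245606 (Gclm), chr2:152105274-152105573 (Srxn1) and chr10:82858956-82859255 (Txnrd1, 1 of 3 windows in the table), all on the plus strand.
Gclm: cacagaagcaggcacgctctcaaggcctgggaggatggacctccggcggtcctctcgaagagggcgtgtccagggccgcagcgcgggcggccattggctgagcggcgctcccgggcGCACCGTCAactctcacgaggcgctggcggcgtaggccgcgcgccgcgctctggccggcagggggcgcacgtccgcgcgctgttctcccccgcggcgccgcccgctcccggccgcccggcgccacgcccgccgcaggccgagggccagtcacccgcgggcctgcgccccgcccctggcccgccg
Srxn1: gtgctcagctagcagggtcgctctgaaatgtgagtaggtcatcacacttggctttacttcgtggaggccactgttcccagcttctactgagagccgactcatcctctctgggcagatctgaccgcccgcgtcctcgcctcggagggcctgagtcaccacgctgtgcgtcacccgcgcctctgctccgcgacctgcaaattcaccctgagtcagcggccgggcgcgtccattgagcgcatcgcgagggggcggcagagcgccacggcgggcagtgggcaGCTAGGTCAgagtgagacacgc
Txnrd1: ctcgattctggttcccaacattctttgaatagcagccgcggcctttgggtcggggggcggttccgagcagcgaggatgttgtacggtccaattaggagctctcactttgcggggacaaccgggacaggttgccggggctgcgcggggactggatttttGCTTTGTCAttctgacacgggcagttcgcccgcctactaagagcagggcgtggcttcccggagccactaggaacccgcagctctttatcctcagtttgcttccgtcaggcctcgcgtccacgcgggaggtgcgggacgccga
All 3 matches read on the strand opposite to the gene. The match began 134 bases before the start site in Gclm, 92 bases before it in Txnrd1 and at base 29 of the transcript in Srxn1. These windows also hold GCGTG in small letters (3 matches in Gclm, 2 in Srxn1 and 2 in Txnrd1), and 0 matches of the motifs overlap. Of the 14 called NRF2 target genes with a window, 7 held TGACNNNGC (50%), against 16.7% of the tested genes with a window and 20.6% of those called higher. GCGTG was held by 9 of the 14 (64.3%), against 52.2% of the tested genes with a window. The 14 were drawn from a list of NRF2 targets, so these shares do not test NRF2 in these arrays. A match does not show binding. The windows of Nqo1, Gpx2 and Cbr3 held no TGACNNNGC in these letters.

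Glutathione S-transferases, which attach glutathione to electrophiles, were called in 9 of 22 measured cases, all higher with 1,5-naphthalenediamine, against 1.49% of all genes. The median of the 22 was 0.57. Gsta2 led them and read 9.53, 9.58 and 9.44 against 7.09, 7.16 and 7.38 (2.30 ± 0.21, adjusted p = 2.51e-12). The others were Gsto1 (1.12), Gstm1 (1.00), Gsta4 (0.89), Gsta3 (0.85), Mgst2 (0.83), Gstz1 (0.63), Gstp1 (0.61) and Mgst1 (0.33). The 13 that were not called also had differences above 0, from 0.01 for Gstt1 to 0.72 for Gstm3 (95% interval 0.18 to 1.25). Members of the alpha, mu and pi classes are near-copies of each other, so a probe set can take signal from a relative. Between 7 and 9 were called when 1 array was left out. Mgst2 was lost without any 1 of animals 1-2, 1-5, 1-14 and 1-15, Mgst1 without 1-5 or 1-12, and Gstz1 without 1-15. Mgst1 was also lost when probe sets were averaged (limma adjusted p = 0.134), in the 6 arrays alone (0.122) and in set 1 alone (0.101). It was lost too at a fold change of at least 1.5, and its 2 probe sets ranged from 0.05 to 0.33.

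Some carbonyl reductases and enzymes that supply their NADPH were called as well. The counts of these lists stand beside the 1.67% of all genes tested that were called. Lists can share members, so 1 call can enter the counts of several lists. Cbr3 read 10.97, 11.11 and 11.13 with 1,5-naphthalenediamine and 8.73, 8.79 and 9.11 with N-(1-naphthyl)ethylenediamine (4.57-fold, 2.19 ± 0.20, adjusted p = 1.63e-12). Its neighbour Cbr1 differed by 1.23 ± 0.11 and the aldo-keto reductase Akr1c19 by 1.24 ± 0.20, which made 3 of 21 carbonyl and aldo-keto reductases. Akr1b8, a member of the same family, differed by 0.98 and was not called (95% interval 0.33 to 1.63, adjusted p = 0.131). Of 13 enzymes of the pentose phosphate route and NADPH supply, 4 were higher: malic enzyme Me1 (0.89 ± 0.16), phosphogluconate dehydrogenase Pgd (0.89 ± 0.11), isocitrate dehydrogenase Idh1 (0.79 ± 0.15) and transaldolase Taldo1 (0.79 ± 0.11). Ephx1, the microsomal epoxide hydrolase, differed by 0.73 ± 0.10 and was the only call among 4 epoxide hydrolases. Adh7, an alcohol dehydrogenase (1.06 ± 0.25), and Aldh3b1 (0.59 ± 0.11) joined Aldh3a1 as 3 of 23 aldehyde and alcohol dehydrogenases, although Adh7 was not called without animal 1-4 (adjusted p = 0.0763) or 1-15 (0.0933). Of 24 cytochrome P450 enzymes, Cyp2s1 (0.59 ± 0.13) was the only call beside the Cyp1 pair.

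Ces1g, a carboxylesterase, had the second largest measured difference of all called genes. It read 9.51, 9.42 and 9.43 with 1,5-naphthalenediamine and 5.30, 5.17 and 5.50 with N-(1-naphthyl)ethylenediamine, with controls at 5.02, 4.78 and 4.83. The 3 groups did not overlap, and N-(1-naphthyl)ethylenediamine lay slightly above the controls. The difference was 17.5-fold (4.13 ± 0.37, adjusted p = 1.63e-12). Ces1f, its neighbour in the family, differed by 1.38 ± 0.28, and the other 9 measured carboxylesterases were not called (-0.49 for Ces2b to 0.63 for Ces1c). Over all genes tested, 1.67% were called.

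Among 23 measured enzymes that acetylate, oxidise or conjugate amines, 2 were called, both oxidases, where 1.67% of all genes tested were called. Aoc1, which oxidises diamines such as histamine and putrescine, read 9.14, 9.56 and 9.13 with 1,5-naphthalenediamine and 6.76, 6.50 and 6.68 with N-(1-naphthyl)ethylenediamine, and the controls lay between at 7.38, 7.72 and 6.90 (6.19-fold, 2.63 ± 0.33, adjusted p = 6.98e-08). Aox1, aldehyde oxidase, differed by 1.08 ± 0.16. The median of these 23 genes was -0.08. The acetyltransferases Nat1 (-0.04) and Nat2 (0.22), which set the fate of aromatic amines, were not called.

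**Figure D2:**
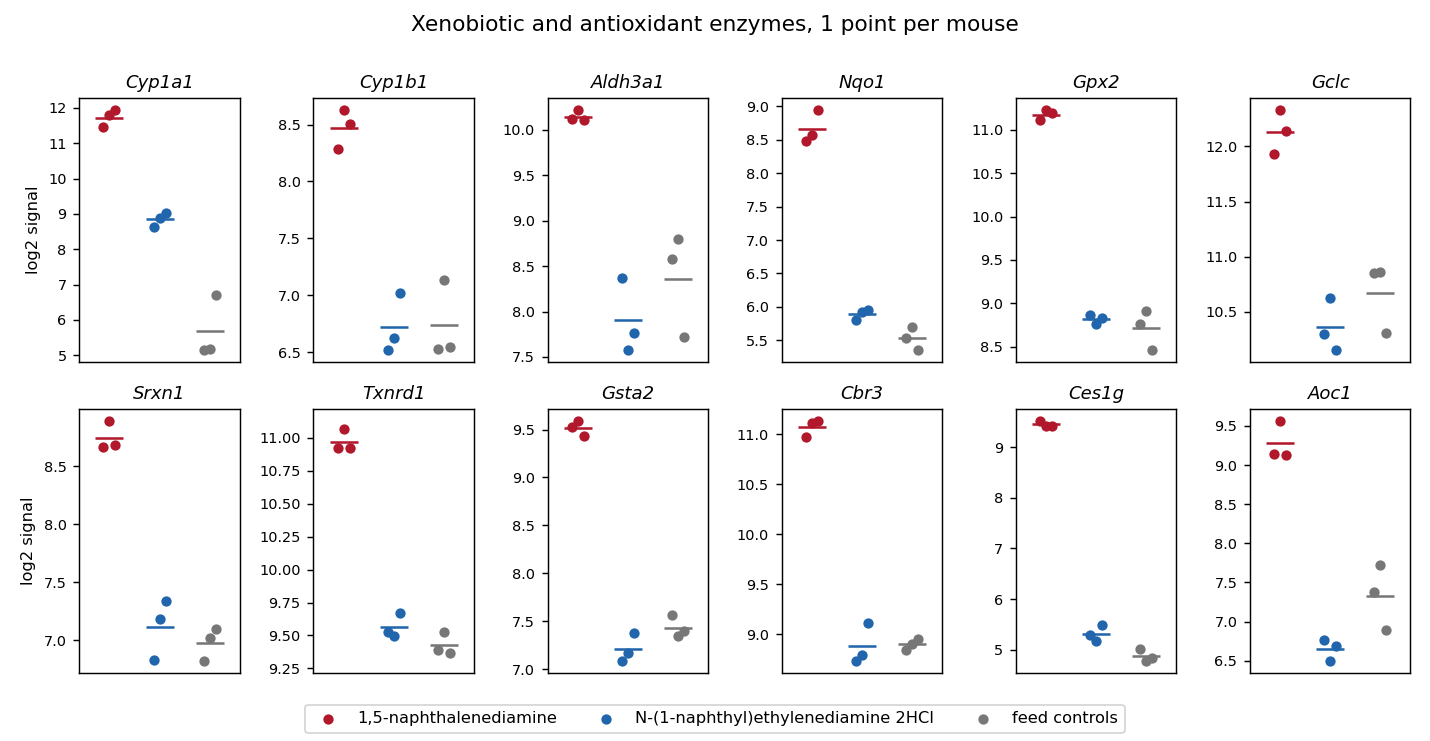
Each panel shows 1 gene on its own log2 signal axis, with 1 point per mouse and a line at the group mean of 3 mice; red is 1,5-naphthalenediamine, blue N-(1-naphthyl)ethylenediamine and grey the feed controls. In all 12 panels the red points lie above the blue ones. In Cyp1a1 the blue points (8.63 to 9.03) also lie above the grey ones (5.15 to 6.70). The same holds by smaller gaps in Nqo1 (5.79 to 5.96 above 5.35 to 5.70) and Ces1g (5.17 to 5.50 above 4.78 to 5.02).

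Antibody genes were the other large group. Of 25 measured immunoglobulin and plasma cell genes 10 were higher and 0 lower with 1,5-naphthalenediamine, where 1.49% of all genes tested were called higher. Differences were above 0 in 24 of the 25, and the median was 0.60. The mean of the 25 genes was 8.93, 8.43 and 8.71 with 1,5-naphthalenediamine, 7.33, 7.29 and 7.49 with N-(1-naphthyl)ethylenediamine and 7.59, 7.69 and 7.20 in the controls. Ighm, the heavy chain of IgM, read 13.80, 12.52 and 12.86 with 1,5-naphthalenediamine and 8.55, 9.48 and 9.07 with N-(1-naphthyl)ethylenediamine. The controls read 9.77, 9.22 and 8.66, within or just above the range of the latter. The difference was 16.2-fold with a wide interval (4.02 ± 0.88, 95% interval 2.25 to 5.78, adjusted p = 0.00355), and its 11 probe sets ranged from -0.12 to 7.07. Jchain, which links IgM and IgA into polymers, read 12.48, 11.63 and 12.19 against 8.35, 7.67 and 9.04 (3.75 ± 0.73, adjusted p = 0.000635). Igha, the heavy chain of IgA, read 13.44, 13.01 and 13.31 against 11.02, 9.49 and 11.36 (2.62 ± 0.57, adjusted p = 0.00294).

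Some light chain genes spread widely between the mice given 1,5-naphthalenediamine. Igk read 10.68, 8.00 and 11.36 with 1,5-naphthalenediamine and 6.78, 6.83 and 6.62 with N-(1-naphthyl)ethylenediamine (3.27 ± 0.66, limma adjusted p = 0.00105). That error rests on the spread shared by all 18 groups of the fit. The standard deviation of Igk was 1.78 with 1,5-naphthalenediamine and 0.11 with N-(1-naphthyl)ethylenediamine. A further variable segment of the kappa chain, outside the list, read 11.61, 7.47 and 9.55 against 5.67, 6.26 and 5.66, where animal 1-4 lay nearest to the other group. Igkv6-14 (3.49 ± 0.56) and Iglv1 (3.41 ± 0.70) were also higher. Antibody segments are near-identical copies and each mouse uses them differently, so the level of a single segment is uncertain. The calls ended for Igk without animal 1-5 (adjusted p = 0.0537), for that further segment without animal 1-2 (adjusted p = 0.0619) and for Igha without animal 1-14 (adjusted p = 0.0732). Between 7 and 10 members of the list were called when 1 array was left out.

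Genes of the antibody-secreting machinery followed in part. Mzb1, a chaperone of plasma cells, read 9.99, 8.61 and 8.98 against 7.25, 7.09 and 7.32 (1.97 ± 0.28, adjusted p = 1.72e-06). Edem1, which sorts misfolded proteins for breakdown, differed by 0.98 ± 0.15, with its other probe set at 0.06. Pigr, the receptor that carries IgA and IgM across the epithelium, read 10.20, 9.63 and 10.34 against 9.02, 8.75 and 8.91, with controls at 9.73, 9.81 and 9.20, nearer to 1,5-naphthalenediamine (1.16 ± 0.29, adjusted p = 0.0174). Pou2af1, a coactivator of B cells, differed by 1.70 ± 0.47 (adjusted p = 0.0417). The call of Pigr ended without any 1 of animals 1-2, 1-5, 1-14 and 1-15 (adjusted p 0.0648 to 0.159), and that of Pou2af1 without any 1 animal but 1-4 (0.0683 to 0.278). The plasma cell regulators Irf4 (0.68), Xbp1 (0.16) and Prdm1 (-0.01) were not called.

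Markers of B cells before they secrete antibody were called by limma in 0 of 18 measured cases, where 1.67% of all genes tested were called. Of the 18, 2 had an unadjusted p under 0.05 and 17 had differences above 0, with a median of 0.35. Ms4a1, which encodes CD20, differed by 0.45 (95% interval -0.68 to 1.58), and Cd79a by 0.42. The mean of the 18 markers was 7.06, 6.54 and 6.54 in animals 1-2, 1-4 and 1-5, against 6.47, 6.32 and 6.37 with N-(1-naphthyl)ethylenediamine and 6.60, 6.79 and 6.48 in the controls. Animal 1-2 thus had the highest B cell mean, the highest Ighm and the highest Mzb1 of the 6 mice. The part of B cell number in the antibody differences was not tested. T and NK cell markers were called in 0 of 25 cases, beside the same 1.67% (2 at an unadjusted p under 0.05, median -0.20). Cd3e differed by -0.20 (95% interval -0.46 to 0.06).

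Chemokines and mucosal genes were called singly. Of 35 measured cytokines and chemokines 4 were higher and 0 lower with 1,5-naphthalenediamine, where 1.49% of all genes were called higher. The median was 0.05. Ccl8, which attracts monocytes and T cells, read 9.16, 7.83 and 7.73 against 5.64, 5.74 and 5.31 (2.68 ± 0.59, adjusted p = 0.00385), and was not called without animal 1-2 (adjusted p = 0.0803). Cxcl17, a chemokine of mucosal epithelium, read 10.88, 11.06 and 10.90 against 9.23, 8.91 and 8.97 (1.91 ± 0.32, adjusted p = 4.6e-05). Ccl20, the ligand that draws B cells and dendritic cells to mucosal follicles, differed by 0.93 ± 0.16. Cxcl9 differed by 1.08 ± 0.29, mostly through animal 1-2 (6.37, against 4.91 and 5.21), and by 0.64 without that animal (limma adjusted p = 0.494). Its call also ended without 1-12, 1-14 or 1-15. The same held when probe sets were averaged (0.0689), in the 6 arrays alone (0.0992) and in set 1 alone (0.0731). The other probe set of Cxcl9 stood at 0.03. Cxcl5 (2.25, 95% interval 0.52 to 3.99), Tnf (0.03) and Il1b (-0.36) were not called.

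Gp2, a membrane glycoprotein that M cells use to take up bacteria, had the largest measured difference of all called genes. It read 7.87, 8.43 and 8.06 with 1,5-naphthalenediamine and 3.91, 3.58 and 3.91 with N-(1-naphthyl)ethylenediamine, where the controls read 3.62, 4.18 and 3.67. The groups lay about 4 log2 units apart, and the means of N-(1-naphthyl)ethylenediamine (3.80) and of the controls (3.82) lie under the level of 4.25 that served as the filter on low values. The mean of Gp2 with 1,5-naphthalenediamine stood 14.6-fold above that level, a figure that carries no error. The fitted difference was 4.32 ± 0.45 (95% interval 10.7-fold to 37.1-fold, limma adjusted p = 1.93e-10). Of 8 measured genes on the M cell list Gp2 and Ccl20 were called, where 1.67% of all genes tested were called. Spib, the factor that M cells require, differed by 0.43 (95% interval -0.17 to 1.04) and Anxa5 by -0.26, and neither was called.

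**Figure D3:**
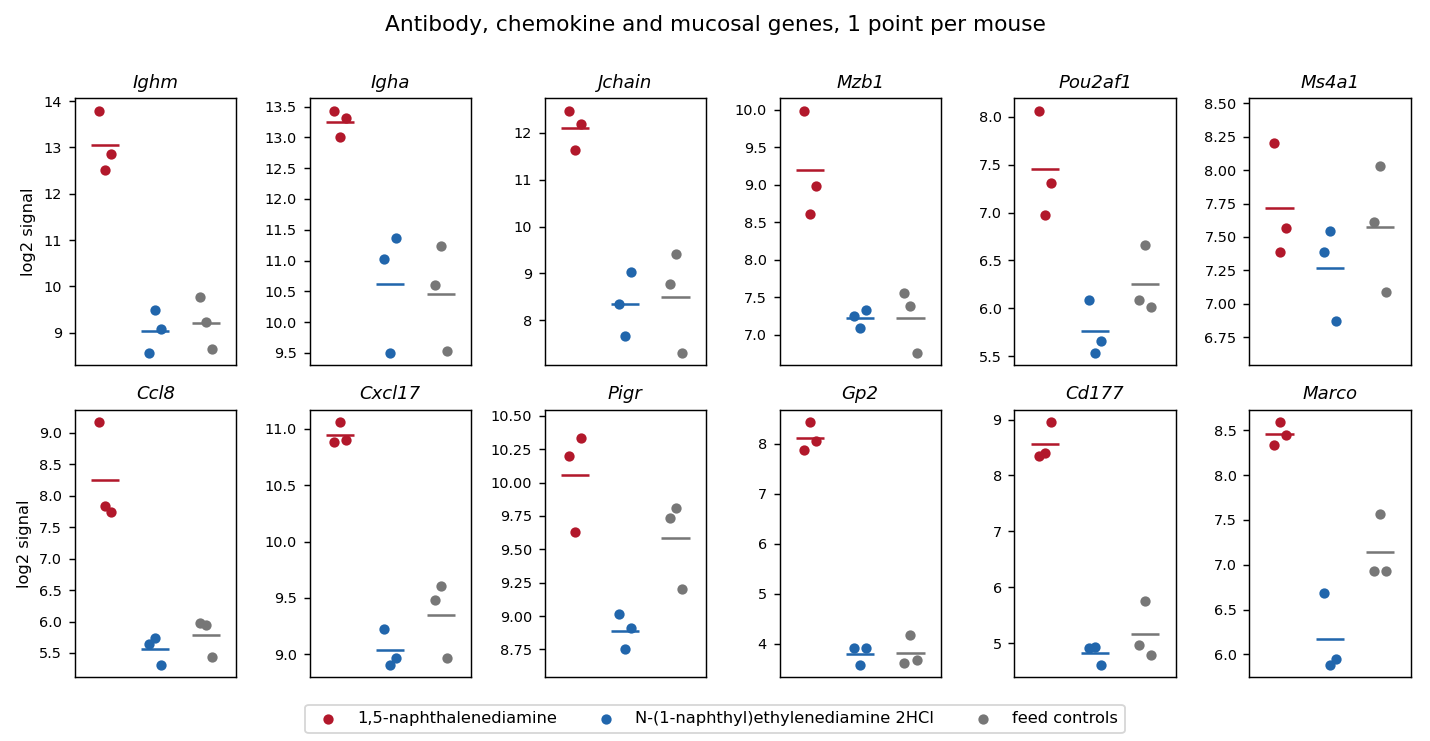
Each panel shows 1 gene on its own log2 signal axis, with 1 point per mouse and a line at the group mean of 3 mice; colours are as in the plot of the enzymes. The points of the compounds are apart in Ighm, Jchain, Gp2, Cd177 and Marco and overlap in Ms4a1, the B cell marker, where 1,5-naphthalenediamine reads 7.39 to 8.20 and N-(1-naphthyl)ethylenediamine 6.87 to 7.54.

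Single genes of myeloid cells were called, and the counts of their lists stand beside the 1.67% of all genes tested that were called. Cd177, a surface protein of neutrophils that epithelium can also make, read 8.35, 8.41 and 8.95 against 4.92, 4.93 and 4.62 (13.4-fold, 3.75 ± 0.55, adjusted p = 1.99e-06). It was the only call among 19 neutrophil genes, and the abundant neutrophil proteins S100a8 (0.02) and S100a9 (-0.05) were not called. The mean of the 19 neutrophil genes, Cd177 included, lay at 6.62 to 6.88 with 1,5-naphthalenediamine and at 6.37 to 6.55 with the other compound. Marco, a scavenger receptor of alveolar macrophages, read 8.34, 8.59 and 8.45 against 6.69, 5.88 and 5.95, with controls between at 6.93, 7.56 and 6.93 (2.29 ± 0.31, adjusted p = 5.92e-07). The other 21 alveolar macrophage genes were not called, among them Siglecf (-0.19, 95% interval -0.75 to 0.37) and Chil3 (0.22). The mean of the 22 genes lay at 8.80 to 9.02 against 8.63 to 8.78, and the part of macrophage number was not tested. Cd14, a coreceptor for endotoxin, was the only call among 23 genes of interstitial macrophages, monocytes and dendritic cells (0.89 ± 0.23, adjusted p = 0.0182). Its call ended without any 1 of animals 1-2, 1-5, 1-12 and 1-15 (adjusted p 0.0521 to 0.119). The complement genes C1qb (1.01, 95% interval 0.36 to 1.66), C1qc (0.79) and C1qa (0.76) of the same list were not called, although their groups did not overlap, and they passed in the fits of the 6 arrays alone, of set 1 alone and with array weights. Retnla, a secreted resistin-like protein that type 2 cytokines induce, was on no list and was singled out after its value was seen: it read 11.41, 11.55 and 11.73 against 8.97, 8.91 and 8.78, with controls at 9.72, 10.16 and 9.30 (adjusted p = 0.00344).

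Sncg, gamma-synuclein, had the smallest error among the genes that differed over 4-fold. It read 8.90, 9.06 and 8.75 with 1,5-naphthalenediamine and 6.12, 6.30 and 5.89 with N-(1-naphthyl)ethylenediamine, with controls at 6.62, 6.32 and 6.05 (6.98-fold, 2.80 ± 0.19, adjusted p = 2.54e-17). Nerve and fat both make this protein. Of 10 measured nerve and neuroendocrine genes Uchl1 was the only other call (0.67 ± 0.19, adjusted p = 0.0447), and its call ended without any 1 of the 6 arrays. Of 13 adipocyte genes Sncg was the only call, and Adipoq, the defining adipocyte hormone, differed by 0.29 (limma adjusted p = 0.985). Over all genes tested, 1.67% were called. The mean of the adipocyte genes was 7.44, 7.92 and 7.16 against 7.08, 7.20 and 6.82, and that of the nerve genes, Sncg among them, 6.16 to 6.20 against 5.75 to 5.78. The part of either tissue in the level of Sncg was not tested.

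Sptssb and Fetub were also among the 15 largest called differences. Sptssb, a small subunit of the enzyme that starts sphingolipid synthesis, read 7.65, 7.70 and 8.24 against 4.55, 5.36 and 4.71 (2.99 ± 0.32, adjusted p = 5.79e-10). Fetub, a secreted protease inhibitor, read 8.24, 8.23 and 8.22 against 5.65, 5.50 and 5.52 (2.68 ± 0.29). Both separated the compounds in every mouse, and the controls (4.64 to 5.33 for Sptssb, 5.32 to 5.88 for Fetub) lay with N-(1-naphthyl)ethylenediamine.

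Ciliated cell genes were higher with 1,5-naphthalenediamine in part, but here the mean of the controls lay nearer to 1,5-naphthalenediamine for 14 of 22 genes and for 3 of the 5 called. Of 22 measured markers 5 were higher and 0 lower, where 1.49% of all genes were called higher. All 22 markers had differences above 0, with a median of 0.51. Their mean was 8.13, 8.20 and 8.17 with 1,5-naphthalenediamine and 7.61, 7.62 and 7.61 with N-(1-naphthyl)ethylenediamine. The feed controls read 8.09, 8.08 and 7.72, so animals 1-27 and 1-28 stood with 1,5-naphthalenediamine and animal 1-29 lay closer to the other compound. Cfap52, a protein of the ciliary axoneme, read 8.27, 8.41 and 8.26 against 6.95, 7.13 and 6.85, with controls at 7.60, 7.70 and 7.24 (1.34 ± 0.19, adjusted p = 1.03e-06). Pifo (0.93 ± 0.18), Cfap126 (0.90 ± 0.17), Ccdc113 (0.95 ± 0.27) and Rsph1 (0.67 ± 0.18) were the other calls. Foxj1, the factor that drives the ciliated programme, read 8.78, 8.82 and 8.62 against 8.62, 7.95 and 7.88, so that animal 1-12 overlapped with the other group, and it was not called (0.59, 95% interval 0.06 to 1.11, adjusted p = 0.383). With 1 array left out 3 or 4 markers were called (3 without any array but that of animal 1-14), and 13 were called in the fit of the 6 arrays alone. Ccdc113 was lost without any 1 of the 6 arrays, and Rsph1 without any but that of 1-14. The part of ciliated cell number was not tested.

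The 26 genes called lower with 1,5-naphthalenediamine reached smaller differences than those called higher, and their number depended on the fit: 69 were called lower in the fit of the 6 arrays alone and 810 with array weights. Lrrc26, an auxiliary subunit of the BK potassium channel in secretory epithelium, read 6.14, 6.46 and 6.39 with 1,5-naphthalenediamine and 7.67, 7.64 and 7.71 with N-(1-naphthyl)ethylenediamine, with controls at 7.85, 7.86 and 7.54. The difference was -1.35 ± 0.18 (adjusted p = 2.34e-07). Slc4a5, a sodium bicarbonate transporter, read 6.31, 6.17 and 6.49 against 7.59, 7.38 and 7.57, with controls at 7.79, 7.63 and 7.67 (-1.20 ± 0.18, adjusted p = 2.66e-06). Htr2b, a serotonin receptor, read 5.12, 5.00 and 4.84 against 5.90, 6.35 and 6.28 (-1.19 ± 0.26, adjusted p = 0.00322). In these 3 genes the controls lay with N-(1-naphthyl)ethylenediamine and apart from 1,5-naphthalenediamine.

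Chad, a cartilage matrix protein also listed for club cells, read 6.70, 6.64 and 6.97 against 8.27, 7.90 and 7.98, with controls at 8.54, 8.81 and 7.90 (-1.28 ± 0.30, adjusted p = 0.00714). Its call ended without animal 1-12 (adjusted p = 0.0719), and the other 10 measured cartilage genes were not called. The cadherins Cdh16 and Cdh13 differed by -0.87 ± 0.24 and -0.81 ± 0.19, and the Notch ligand Dll4 by -0.70 ± 0.19. Col23a1, a membrane collagen, differed by -0.69 ± 0.14 and Myh7, a myosin heavy chain of slow and cardiac muscle, by -0.67 ± 0.15, the only call among 22 muscle genes. Wscd1 (-0.78), Meox1 (-0.65), Adgrl1 (-0.59), 2700081O15Rik (-0.58) and Glb1l3 (-0.57) completed the 15 most negative calls whose groups did not overlap. Among the 15, the calls of Lrrc26, Slc4a5, Htr2b and Myh7 held without each of the 6 arrays, and those of Cdh16 and Wscd1 ended without any 1 of them. The calls of Cdh13 and Col23a1 ended without animal 1-15 (adjusted p = 0.15) and 1-4 (0.0532) respectively. Those of Dll4, Meox1, Adgrl1, 2700081O15Rik and Glb1l3 ended without any 1 of 4 or 5 of the animals, 1-5 and 1-15 among them in each case. Sparc (-0.41), Krt7 (-0.42) and Icam1 (-0.33), listed for matrix, alveolar type I and basal cells, were also called lower. Icam1 was the only call among 7 measured basal cell genes, of which 3 had differences above 0 (median -0.004). The cartilage, muscle and basal cell counts stand beside the 1.67% of all genes tested that were called. The call of Sparc held without each array. It ended when probe sets were averaged (limma adjusted p = 0.132), in set 1 alone (0.0996) and at a fold change of at least 1.5. The 3 probe sets of Sparc ranged from -0.41 to 0.085. The call of Krt7 ended without any array but 1-14, and that of Icam1 without any 1 of the 6.

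Clock genes that peak with Dbp lay lower with 1,5-naphthalenediamine in value. Of 13 measured, 1 was called lower by limma, where 0.178% of all genes tested were called lower. At an unadjusted p under 0.05 the count was 7, all below 0. All 13 differences were below 0, the median was -0.91, and the mean level was 6.82, 7.06 and 7.03 with 1,5-naphthalenediamine and 7.77, 7.78 and 7.96 with N-(1-naphthyl)ethylenediamine. The controls spread over the gap, at 7.04, 7.30 and 7.64. Tef, a PAR-bZIP factor, was the gene called (-1.01 ± 0.25, limma adjusted p = 0.0109). It read 8.79, 9.25 and 9.11 against 9.95, 9.95 and 10.28, with controls at 9.10, 9.46 and 9.85. Its call ended without animal 1-2 (adjusted p = 0.113) or 1-15 (0.111), and when probe sets were averaged (0.194). The 3 probe sets of Tef ranged from -1.01 to -0.39. Dbp itself read 5.46, 6.74 and 6.31 against 8.23, 9.01 and 9.13, the most negative difference of all genes (-2.62, 95% interval -4.25 to -0.99, adjusted p = 0.0907), and was not called. Arntl, which peaks opposite to Dbp, read 8.23, 7.98 and 8.22 against 7.20, 7.11 and 7.08 (1.01, 95% interval 0.15 to 1.88, adjusted p = 0.33). The sources used here do not give the hour of necropsy, and its part in these values was not tested. The fit of the 6 arrays alone called 6 of the 13 genes.

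**Figure D4:**
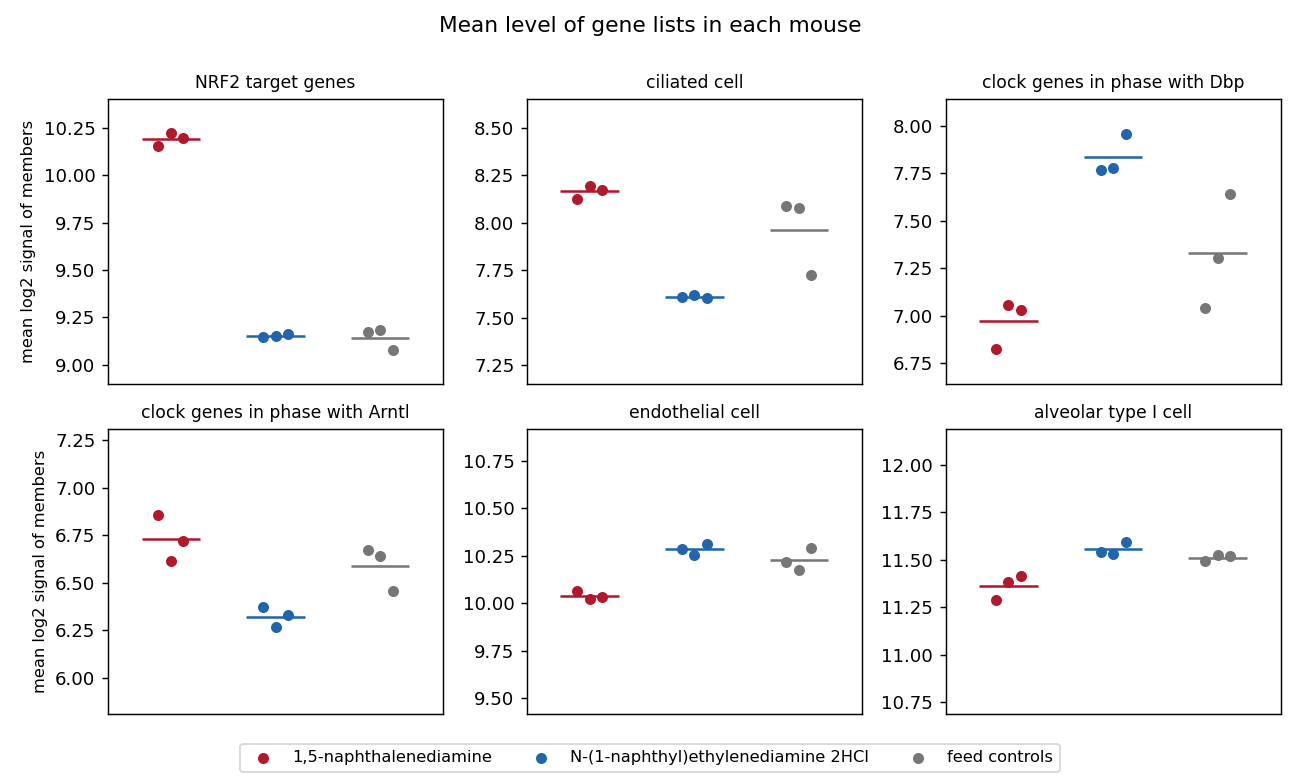
Mean log2 signal of the measured members of 6 gene lists in each mouse (1 point per mouse, line at the mean of 3), on axes that all span 1.5 log2 units. For NRF2 targets N-(1-naphthyl)ethylenediamine (9.15 to 9.16) lies with the controls (9.08 to 9.18), whereas for ciliated cells 2 of 3 controls (8.09 and 8.08) lie near 1,5-naphthalenediamine (8.13 to 8.20).

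Lists tied to DNA damage and to cell division held few or no calls. Of 30 measured p53 target genes 1 was higher, Ddit4l (0.71 ± 0.17, adjusted p = 0.00821), a stress-induced inhibitor of mTOR signalling, and 0 without animal 1-2 (adjusted p of Ddit4l 0.0786); the median was 0.06. Cdkn1a, the main cell cycle inhibitor downstream of p53, differed by 0.49 (95% interval -0.22 to 1.19). The fit called 0 of 48 DNA repair genes (median 0.03) and 0 of 39 cell cycle genes (median 0.07), where it called 1.67% of all genes. At an unadjusted p under 0.05 these counts were 4 and 2. Mki67, a marker of dividing cells, differed by 0.05 with an interval from -0.59 to 0.68, wide enough to hold a 1.5-fold difference in either direction. Heat shock chaperones were called in 0 of 16 cases, also without adjustment (median 0.04), and Edem1 and Trib3 were the 2 calls among 33 genes of endoplasmic reticulum stress. Trib3, a pseudokinase that amino acid stress induces, differed by 0.75 ± 0.19 (adjusted p = 0.0174), and was not called without any 1 of animals 1-4, 1-5, 1-12 and 1-14 (adjusted p 0.0513 to 0.157).

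Markers of the other resident cells are given beside the 1.67% of all genes that were called. Endothelial markers were called in 0 of 26 cases, with a median of -0.26 and 2 differences above 0, and 9 had an unadjusted p under 0.05, all below 0; Pecam1, their defining adhesion molecule, differed by -0.25 (95% interval -0.49 to 0.00). Alveolar type I markers had a median of -0.19 with 0 of 17 above 0, and 6 had an unadjusted p under 0.05, all below 0, of which Krt7 was the only call after adjustment. Alveolar type II markers were called in 0 of 19 cases (1 at an unadjusted p under 0.05, median -0.01), and the interval of Sftpc was narrow (-0.12 to 0.09). Club cell markers were called in 2 of 14 cases, 1 in each direction: Upk3a, a uroplakin, was higher (1.07 ± 0.28, adjusted p = 0.0207) and Chad lower, while Scgb1a1 differed by -0.09 (95% interval -0.20 to 0.03). Galnt12, which starts mucin glycosylation, was the only call among 12 goblet cell genes (0.59 ± 0.14). The call of Upk3a ended without any 1 of animals 1-4, 1-5, 1-12 and 1-14, and that of Galnt12 without any 1 of animals 1-2, 1-4, 1-14 and 1-15.

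**Figure D5:**
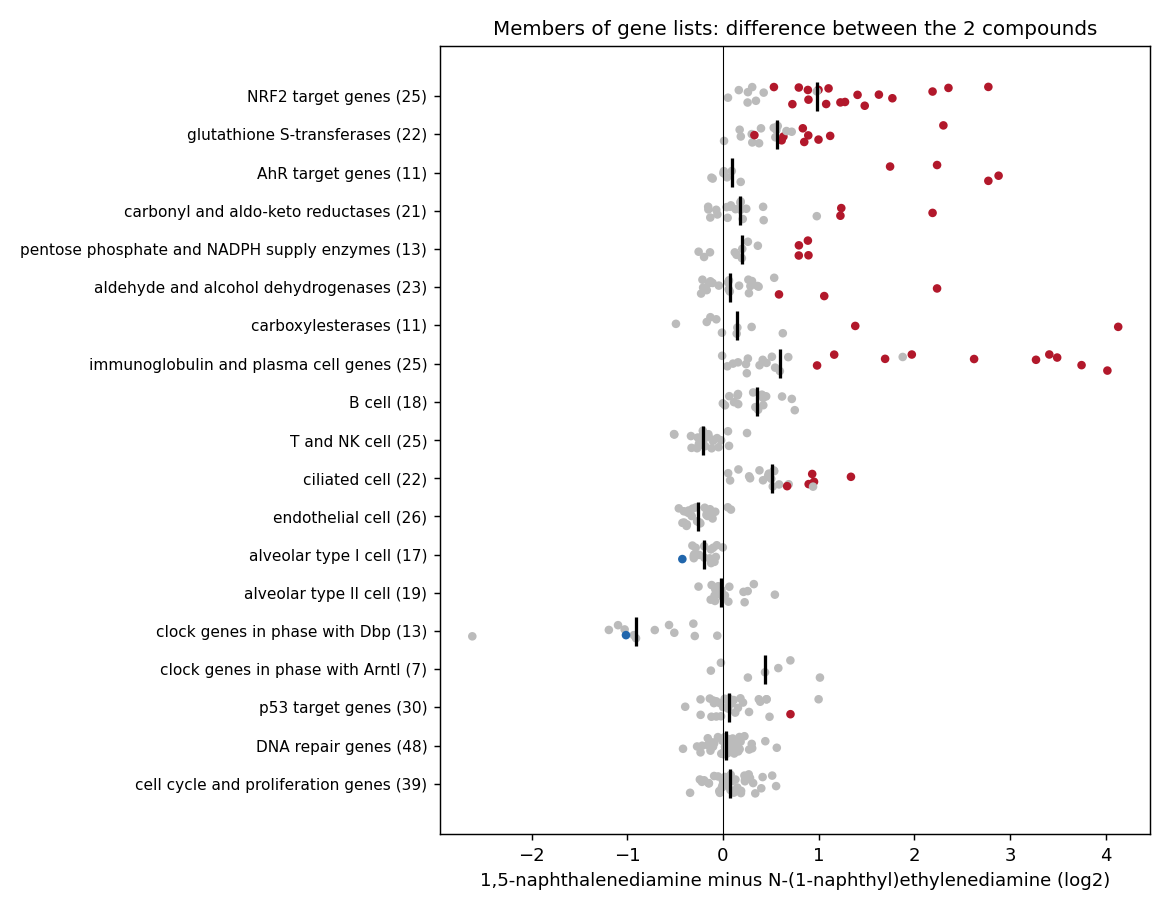
Each point is the difference of 1 measured gene (1,5-naphthalenediamine minus N-(1-naphthyl)ethylenediamine, log2), by list, with the number of measured members in parentheses; red is called higher, blue called lower, grey not called, and the black line is the median. The medians of NRF2 targets (0.98), antibody genes (0.60), glutathione S-transferases (0.57) and ciliated cell genes (0.51) lie to the right and that of clock genes in phase with Dbp (-0.91) to the left.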

How the data were processed

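RNA of 1 right lung lobe per mouse was extracted with Trizol and RNeasy, biotin-labelled and hybridised to Affymetrix whole-genome mouse arrays, per the labels' protocols. By their range (2.47 to 14.5) the deposited values are log2 signals of probe sets, and the 70 array medians lie between 5.41 and 5.52. The sources used here do not state how the authors summarised and normalized the log2 values. The number of arrays limits the precision.

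The 45101 probe sets took their genes from the platform's annotation. Of these, 64 controls were left out, 34945 had 1 gene symbol, 932 several and 9160 none. For 18032 symbols the name was taken from the RefSeq gene table by Entrez identifier. Each gene was represented by its probe set with the highest mean, and genes above the 30th percentile of probe sets (4.25) were tested, 14593 of 18193. limma 3.58.1 in R 4.3.3 fitted 1 mean per group over 18 groups and all 70 arrays (52 residual degrees of freedom), so that the groups share the estimate of the spread; eBayes and Benjamini-Hochberg adjustment over all genes followed, with calls at adjusted p under 0.05. The script was tested on simulated data. Errors are standard errors of that fit, intervals are 95% intervals.

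The 54 gene lists hold 1216 different genes, and a gene can stand on several lists. Median and counts are over the measured members. Named genes are the 15 largest called differences in each direction whose groups do not overlap, called list members, and of members not called those with the largest differences and defining genes; the text gives more than 8 called members for NRF2 targets, glutathione S-transferases and antibody genes. Tiparp, Gss, Gstt1, Nat1, Nat2, Xbp1, Prdm1, Cd79a, Tnf, Il1b, Anxa5, S100a8, S100a9, Chil3, Retnla and Adipoq, like the genes of the other observations, fall outside that rule and were chosen after seeing their values. The members and lists were chosen with earlier results of these data known. Promoter windows come from the RefSeq table for GRCm38.p6. The alternatives are in the closing section. Figures were drawn with matplotlib 3.10.9 and pandas 2.3.3 in Python 3.11.15.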

Additional observations from a re-analysis of the deposited data

How the results depend on the processing

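The count of 243 called genes became 486 (417 higher, 69 lower; 211 of them among the 243) with only the 6 arrays of the compounds in the fit. Array weights gave 1922 calls, 1112 higher and 810 lower, a share of 57.9% higher against 89.3%, and included all 243. Leaving out 1 array gave 158 to 226 calls, with the lowest count without animal 1-5, and 152 of those 158 were among the 243. Quantile normalization over again gave 265 calls, of which 79.2% were higher. The other alternatives gave 190 to 274 calls: no filter on low values, the 50th percentile as filter, averaging a gene's probe sets, the 18 arrays of set 1 alone, a variance trend with robust estimation, the 3' minus 5' covariate and a fold change of at least 1.5. Of the 243 differences, those tested under each alternative kept their sign in every one. Of 89 called genes named by the rule, 55 stayed called in all 16 alternatives in which they were tested and 34 were lost in at least 1, most often without animal 1-15 (22 genes) or 1-2 (21 genes). Array weights called 76 of the 161 named genes that had not passed. Of 100 called genes with several probe sets, all probe sets had the same sign in 85. No paired analysis was possible because the groups share no animal number.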

Other observations

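Genes of the ciliary apparatus outside the marker list were also among the genes called higher, and were chosen after seeing their values. Cdhr4, a cadherin-related protein, read 9.38, 9.54 and 9.52 with 1,5-naphthalenediamine and 7.96, 7.87 and 8.06 with N-(1-naphthyl)ethylenediamine, with feed controls between at 8.56, 8.72 and 8.21 (1.52 ± 0.22, adjusted p = 2.06e-06). Meig1 (1.35), the axonemal dynein chain Dnah7a (1.17) and Capsl (1.11) lay likewise. For Morn5 (1.03) and Cabcoco1 (0.99) the controls lay nearer to 1,5-naphthalenediamine, and Cabcoco1 read 6.23, 6.26 and 6.38 against 5.26, 5.35 and 5.30, with controls at 6.31, 6.57 and 6.03.

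Other genes outside the lists were chosen in the same way. Acox2, a peroxisomal oxidase of branched fatty acids and bile acid precursors, read 8.93, 9.21 and 8.95 against 7.22, 6.96 and 7.10 (1.94 ± 0.17, adjusted p = 7.51e-13). Acsm1, an acyl-CoA synthetase, differed by 1.43 ± 0.28, and Ghrl, which encodes ghrelin, by 2.10 ± 0.19 (6.70, 6.49 and 6.39 against 4.41, 4.27 and 4.62). Shh, the hedgehog ligand, read 9.56, 9.78 and 9.81 against 8.72, 8.73 and 8.84, with controls at 8.76, 8.55 and 8.95 (0.95 ± 0.10, adjusted p = 5.79e-10). Cldn2, a claudin of leaky epithelia, differed by 1.69 ± 0.32, with its other probe set at 0.31. Of the lipid lists, limma called 0 of 33 genes of fatty acid oxidation and PPAR targets (3 at an unadjusted p under 0.05). It called 1 of 25 of cholesterol and fatty acid synthesis (Me1), and 1.67% of all genes tested. In Acox2, Ghrl and Shh the controls lay with N-(1-naphthyl)ethylenediamine.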
